A study of Homo sapiens with 4 samples.

Results

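The response of human microglia-like cells to bacterial lipopolysaccharide (LPS) was measured while γ-secretase was blocked, by comparing cultures given the inhibitor semagacestat and LPS (SemaLPS) with cultures given semagacestat alone (Sema). A droplet barcode counted as a cell of a culture when its highest hashtag antibody had at least 30 unique molecular identifiers (UMIs) and at least 3 times the next hashtag, and when it held 1000 genes or more with no more than 10% of its UMIs mitochondrial. This rule gave 4642 SemaLPS cells and 4611 Sema cells, 9253 of the 16937 cells kept in the whole series, from 6 of its 12 cultures. H9, the established embryonic stem cell line they came from, had first been turned into monocyte-like cells. These were then kept for 7 days in a medium based on TGF-β, IL-34 and cholesterol. SemaLPS cultures received 2 µM semagacestat for 22 h and 200 ng/mL LPS during the last 6 h, and Sema cultures received the same semagacestat with phosphate-buffered saline (PBS) in place of LPS. LPS cultures received dimethyl sulfoxide (DMSO), the vehicle of the inhibitor, and LPS, and Ctrl cultures received DMSO and PBS. Each condition had 3 cultures, numbered 1 to 3. All came from 1 line, and p-values cover only how these cultures vary. The study asked whether a strong signal that does not pass through γ-secretase would override what the inhibitor does to gene expression.

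LPS is sensed by TLR4 with its partners MD-2 (LY96) and CD14, and the adaptors MYD88 and TICAM1 pass the signal to the kinases that free NF-κB from its inhibitors and switch on IRF3. NF-κB drives chemokine and cytokine genes together with genes for its own inhibitors, and TICAM1 signalling leads to interferon-stimulated genes. γ-Secretase is a membrane protease whose catalytic subunit is a presenilin. It cuts the membrane stubs of receptors such as Notch, CD44, TREM2 and CSF1R after their outer domains are shed.

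The cells of all 6 cultures carried macrophage and microglia transcripts. All 13 markers of that class had a mean over 1 CPM across the 6 cultures, while TMEM119 had 0.998 CPM by total counts in SemaLPS-1. CPM are counts scaled to the depth of the culture, in marker values by total counts and elsewhere with TMM. The sum of the 13 lay between 7457 and 7918 CPM in SemaLPS cultures and between 8001 and 8347 CPM in Sema cultures. TMEM119, a marker of microglia in tissue, was low, at 1.29 ± 0.199 CPM with TMM in SemaLPS and 1.96 ± 0.385 CPM in Sema cultures (SD, n = 3 each, here and below). Depth ranged from 37516154 UMIs in Sema-2 to 60453967 UMIs in Sema-3, and the median cell had 31026.5 to 32132 UMIs in SemaLPS cultures and 28051 to 28639 UMIs in Sema cultures. Of the cells with 1 hashtag, 22.3 to 32.2% in SemaLPS cultures and 26.6 to 37.3% in Sema cultures were over the mitochondrial limit. Sema-3 stood apart in cell number, with 3208 barcodes against 1893 and 2006 in the other Sema cultures. It was the highest Sema culture in 127 of the 282 genes of at least 20 CPM that rose 2-fold or more. SemaLPS-3 was the lowest SemaLPS culture in 182 of them. With stricter hashtag limits (100 UMIs and 5 times the next) the fold changes of all 17 induced genes plotted below were larger, and without Sema-3 those of all but CXCL10 were. Of the barcodes kept, 24 occurred in both libraries. In bulk sums such as these, more cells with a transcript and more transcript per cell cannot be told apart, and per-cell shares are given further on. The pool was mixed before the droplets were made, so free RNA of LPS-treated cells could reach Sema droplets; its share was not tested.

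LPS changed most of the genes tested while γ-secretase was blocked, in nearly equal numbers up and down. Of 15383 genes, 5182 (33.7%) rose and 5241 (34.1%) fell in SemaLPS against Sema cultures by edgeR's quasi-likelihood test, with the replicate number as a block and adjusted p under 0.05. Most changes were small: 945 genes (6.14%) rose 2-fold or more and 1283 (8.34%) fell 2-fold or more. The count of each gene list given below is to be read against these shares of all genes tested. The rises reached further than the falls, with 206 genes up by a log2 fold change of 3 or more and 50 down by as much. The genes that rose 2-fold or more, chosen by this same contrast, held 9.50 to 10.1% of all UMIs in SemaLPS cultures and 3.28 to 3.57% in Sema cultures. Of the 4379 genes called at a mean of 20 CPM or more, 4367 went the same way in all 3 same-numbered pairs. SemaLPS and Sema cultures did not overlap for 9547 (91.6%) of the 10423 genes called at any level. Statements below that groups did not overlap are to be read against this share. Scaled to total counts without TMM, 2958 genes rose and 8085 fell, and the median log2 fold change of all genes was −0.22 in place of −0.02. Changes smaller than that shift depend on the scaling.

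Of 22 genes of the receptor complex and its adaptors tested, 11 rose and 6 fell, where 33.7% of all genes rose and 34.1% fell, with a median log2 fold change of 0.12 against −0.02 over all genes tested. The list median was −0.09 without TMM. IRAK2, a kinase that prolongs MYD88 signalling, had 21.7, 23.7 and 18.6 CPM in SemaLPS cultures 1 to 3, against 2.45, 2.65 and 2.75 CPM in Sema cultures 1 to 3. No SemaLPS culture came near a Sema culture for this gene (log2 fold change 3.00, SE 0.0945; edgeR adjusted p = 1.39e-13). TRAF3, an adaptor of the TICAM1 branch, averaged 57.9 ± 1.49 CPM in SemaLPS and 22.3 ± 0.676 CPM in Sema cultures (log2 fold change 1.38, SE 0.0342; edgeR adjusted p = 7.98e-15). CD180, a TLR4-like receptor that restrains TLR4 signalling in macrophages, had 17.7, 15.5 and 16.2 CPM in SemaLPS cultures and 57.9, 52.4 and 50.6 CPM in Sema cultures, and fell (log2 fold change −1.71, SE 0.0465; edgeR adjusted p = 2.32e-14). TLR4 itself, named outside the rule after its values were seen, stood at 92.2 ± 2.88 CPM in SemaLPS and 78.5 ± 2.81 CPM in Sema cultures (log2 fold change 0.23, SE 0.0252; edgeR adjusted p = 6.19e-07), a rise about as large as the shift between scalings given above.

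Genes for NF-κB subunits and for the inhibitors that restrain NF-κB mostly rose. Of 20 tested, 17 rose, 12 of them 2-fold or more, where 33.7% of all genes rose and 6.14% rose 2-fold or more, and 2 fell (IKBKB and OTULIN, log2 fold changes −0.29 and −0.42). The median log2 fold change was 1.46. NFKBIA, which encodes the inhibitor IκBα, had 576, 601 and 530.2 CPM in SemaLPS cultures 1 to 3, against 103.8, 107 and 105 CPM in Sema cultures 1 to 3. NFKB2, the precursor of the p52 subunit, had 67.6, 68.3 and 67.7 CPM in SemaLPS cultures and 8.67, 8.69 and 9.68 CPM in Sema cultures. The cultures of each group lay close together for both genes, and the groups were far apart (log2 fold change 2.43, SE 0.0387 for NFKBIA; log2 fold change 2.91, SE 0.0505 for NFKB2; edgeR adjusted p = 1.04e-16 and 2.09e-16). TNIP1 and TNIP3 encode partners of the ubiquitin editor A20. TNIP1 averaged 148 ± 11.00 CPM in SemaLPS and 24.7 ± 2.25 CPM in Sema cultures (log2 fold change 2.58, SE 0.0439). TNIP3 was at 119.5, 115 and 82.9 CPM in SemaLPS cultures 1 to 3, against 2.52, 1.84 and 3.68 CPM in Sema cultures 1 to 3; it had a log2 fold change of 5.20 (SE 0.14; edgeR adjusted p = 2.97e-14), which was 5.80 with stricter hashtags and 5.69 without Sema-3. Among 24 feedback regulators, 14 rose and 8 fell (33.7% and 34.1% of all genes), with a median of 0.57. SOCS3, an inhibitor of STAT3 signalling, had 45.2, 45.8 and 33.4 CPM in SemaLPS cultures 1 to 3, against 1.96, 1.82 and 1.96 CPM in Sema cultures 1 to 3 (log2 fold change 4.40, SE 0.0723; edgeR adjusted p = 1.26e-16). ZC3H12A, an RNase that degrades cytokine mRNAs, averaged 86.3 ± 4.02 CPM in SemaLPS and 11.5 ± 0.523 CPM in Sema cultures (log2 fold change 2.90, SE 0.0541). TNFAIP8, a regulator of cell survival, averaged 230.4 ± 13.7 CPM in SemaLPS and 50.5 ± 1.000 CPM in Sema cultures (log2 fold change 2.19, SE 0.0353). The falls in this list included SPRY2 and SPRED1, which restrain the ERK pathway, at log2 fold changes of −2.35 and −1.26.

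Of the 25 chemokine genes on the list, every one that could be tested rose. All 22 passed the test, 21 of them 2-fold or more, with a median log2 fold change of 3.96, while 33.7% of all genes rose and 6.14% rose 2-fold or more. Without TMM 21 were called as rises, and the smallest log2 fold change with TMM was 0.23. CXCL9, CCL24 and CX3CL1 were too low to be tested, with 11, 7 and 3 UMIs over the 3 SemaLPS cultures and 0, 6 and 1 over the 3 Sema cultures. CXCL8, which attracts neutrophils, had 1066, 1168 and 1012 CPM in SemaLPS cultures 1 to 3, against 38.5, 31.1 and 43.6 CPM in Sema cultures 1 to 3. CCL8, a monocyte attractant, had 51.9, 50.1 and 31.1 CPM in SemaLPS cultures 1 to 3, against 0.721, 1.03 and 0.821 CPM in Sema cultures 1 to 3, which was the largest rise by the rule for named genes (log2 fold change 5.64, SE 0.10; edgeR adjusted p = 2.28e-16). No culture of one group came near the other group for either gene (CXCL8 log2 fold change 4.83, SE 0.10; edgeR adjusted p = 1.29e-15). CCL4, which attracts monocytes and T cells, averaged 4078 ± 236 CPM in SemaLPS and 195 ± 19.5 CPM in Sema cultures (log2 fold change 4.38, SE 0.0836). CCL3, a ligand of CCR1, averaged 2466 ± 183 CPM in SemaLPS and 202 ± 13.9 CPM in Sema cultures (log2 fold change 3.60, SE 0.0813). CCL20, the ligand of CCR6, was at 219.9, 209 and 186 CPM in SemaLPS and 8.17, 5.52 and 10.8 CPM in Sema cultures (log2 fold change 4.60, SE 0.13). CCL5, which attracts T cells, averaged 81.2 ± 5.30 CPM in SemaLPS and 5.47 ± 0.303 CPM in Sema cultures (log2 fold change 3.88, SE 0.0585). CXCL10, an interferon-induced chemokine, varied more between cultures, with 47.7, 25.7 and 38.5 CPM in SemaLPS cultures and 1.78, 1.57 and 1.04 CPM in Sema cultures (log2 fold change 4.70, SE 0.14; edgeR adjusted p = 8.52e-14). CCL4L2, a near-identical copy of CCL4, had 1759, 1792 and 1610 CPM in SemaLPS cultures and 75.9, 64.9 and 81.1 CPM in Sema cultures (log2 fold change 4.53, SE 0.11), and how reads were divided between the copies is uncertain. The loci are grouped on the genome in GENCODE v29 on GRCh38. CXCL8, CXCL1, CXCL2, CXCL3, CXCL5 and CXCL6 lie on chromosome 4 between 73740506 and 74099293, and all 6 rose, by log2 fold changes of 1.55 to 4.83. PF4 and PPBP lie in the same span and were too low to be tested. Each had 0 UMIs in every SemaLPS culture and 1 UMI in Sema-1. CCL5, CCL23, CCL18, CCL3, CCL4, CCL3L1 and CCL4L2 lie on chromosome 17 between 35871491 and 36212878, and all 7 rose, by 1.98 to 4.53. CCL2, CCL7, CCL8, CCL13 and CCL1 lie on chromosome 17 between 34255218 and 34363231, and all 5 rose, by 3.01 to 5.64.

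**Figure D1:**
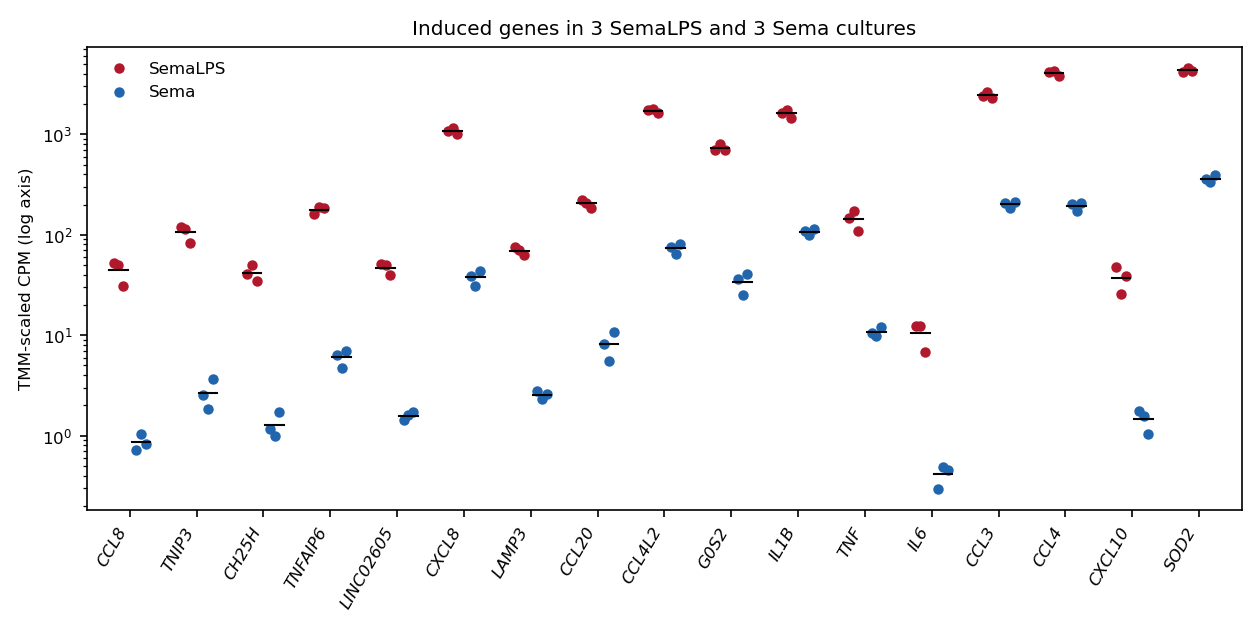
TMM-scaled CPM (log axis) of the 10 largest rises and 7 further cytokine, chemokine and SOD2 genes in SemaLPS cultures (red) and Sema cultures (blue); each point is 1 culture and each bar the mean of 3. No culture of one group overlapped the other for any of the 17 genes, as for 91.6% of all genes called. The 10 largest rises were chosen by this same contrast. CXCL8 sat at 1012 to 1168 CPM in SemaLPS and 31.1 to 43.6 CPM in Sema cultures.

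Several of these induced genes share a short κB-like sequence close to their start. Its part in their rise was not tested. The motif searched was GGANTTTCC, on both strands (reverse complement GGAAANTCC), in the 250 bases before each start in RefSeq's promoter table (GRCh38.p14); of the 35116 windows in that table, 510 (1.45%) held it. Of the 10 largest rises and the other genes listed in the plot of induced genes, CXCL8, IL6 and CXCL10 held a match. CCL8, CH25H, TNFAIP6, CCL20, G0S2, IL1B and TNF held none in their single window, which says only that these letters were not in it. TNIP3, CCL3 and SOD2 held none in any of several windows, and LAMP3, CCL4, CCL4L2 and LINC02605 were not searched here. NFKBIA held a second match farther from its start. CXCL1, CXCL2, CXCL3, NFKBIA and TNFAIP3 were added after their values were seen, and each held a match. CXCL5, CXCL6 and CXCL11, also on chromosome 4, were not searched here. The chemokine genes of chromosome 17 rose too, and of these CCL8 and CCL3 held no match. A comparison over gene sets would be void, since windows were found for 10720 (69.7%) of the genes tested, under the 80% required. Each line gives 29 bases, 5′ to 3′ on the strand of the gene, with the match in capitals.
CXCL8 chr4:73740468-73740496, plus strand, first capital 91 bases before the start: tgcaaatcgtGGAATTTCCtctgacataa
CXCL1 chr4:73869305-73869333, plus strand, first capital 78 bases before the start: tggaactccgGGAATTTCCctggcccggg
CXCL2 chr4:74099254-74099282, minus strand, first capital 77 bases before the start: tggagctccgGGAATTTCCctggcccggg
CXCL3 chr4:74038749-74038777, minus strand, first capital 78 bases before the start: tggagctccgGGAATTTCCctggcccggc
CXCL10 chr4:76023655-76023683, minus strand, first capital 176 bases before the start: aggagcagagGGAAATTCCgtaacttgga
IL6 chr7:22727118-22727146, plus strand, first capital 72 bases before the start: atcaaatgtgGGATTTTCCcatgagtctc
NFKBIA chr14:35404812-35404840, minus strand, first capital 81 bases before the start: tgactggcttGGAAATTCCccgagcctga
TNFAIP3 chr6:137867182-137867210, plus strand, first capital 67 bases before the start: acgtgactttGGAAAGTCCcgtggaaatc
CXCL1, CXCL2 and CXCL3 had matches at nearly the same distance and in like surroundings, and rose by log2 fold changes of 3.63, 4.12 and 3.93. TNFAIP3, which encodes A20, rose by 3.05. A match is a description of these letters and not a measured binding site.

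Of 30 cytokine and growth factor genes tested, 22 rose and 5 fell, where 33.7% of all genes rose and 34.1% fell, with a median log2 fold change of 2.06. IL1B, a secreted interleukin-1 cytokine, had 1624, 1749 and 1467 CPM in SemaLPS cultures 1 to 3, against 109, 99.4 and 114 CPM in Sema cultures 1 to 3 (log2 fold change 3.90, SE 0.0821; edgeR adjusted p = 1.20e-15). IL1A, the related alarmin, averaged 58.4 ± 3.32 CPM in SemaLPS and 3.77 ± 0.204 CPM in Sema cultures (log2 fold change 3.93, SE 0.0896). EBI3, a subunit of IL-27 and IL-35, averaged 106 ± 10.1 CPM in SemaLPS and 7.74 ± 1.02 CPM in Sema cultures (log2 fold change 3.76, SE 0.0810). All 3 SemaLPS cultures lay above all Sema cultures for these genes. TNF varied, with 148, 173 and 109 CPM in SemaLPS cultures 1 to 3, against 10.5, 9.80 and 12.0 CPM in Sema cultures 1 to 3 (log2 fold change 3.67, SE 0.14; edgeR adjusted p = 1.88e-12). IL6 was read from 580, 675 and 284 UMIs in SemaLPS cultures 1 to 3 and from 13, 20 and 29 UMIs in Sema cultures 1 to 3 (log2 fold change 4.57, SE 0.16; edgeR adjusted p = 6.90e-13). SemaLPS-3 was the lowest SemaLPS culture for IL1B, TNF and IL6. IL12B, a subunit of IL-12 and IL-23 named after its values were seen, averaged 5.13 ± 1.77 CPM in SemaLPS and 0.0728 ± 0.0511 CPM in Sema cultures. In SemaLPS-2, 3 cells held 68.8% of its UMIs, and in SemaLPS-3, 3 cells held 73.7%. The 5 genes that fell were IGF1, HBEGF, IL19, IL18 and IL10. IGF1, a growth factor made by microglia, had 8.13, 6.30 and 7.02 CPM in SemaLPS cultures 1 to 3, against 34.0, 35.2 and 30.5 CPM in Sema cultures 1 to 3 (log2 fold change −2.22, SE 0.0638; edgeR adjusted p = 4.58e-14). IL10, an anti-inflammatory cytokine, averaged 2.66 ± 0.626 CPM in SemaLPS and 4.63 ± 0.537 CPM in Sema cultures (log2 fold change −0.80, SE 0.12; edgeR adjusted p = 1.75e-05). The remaining 6 list members were not tested; CSF2 and CSF3 had 0 and 6 UMIs in SemaLPS cultures and 0 and 0 in Sema cultures.

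Of 31 interferon-response genes tested, 24 rose, 8 of them 2-fold or more, and 3 fell, where 33.7% of all genes rose and 6.14% rose 2-fold or more, with a median log2 fold change of 0.74. IFIH1, which encodes the RNA sensor MDA5, had 49.3, 46.2 and 46.9 CPM in SemaLPS cultures 1 to 3, against 22.4, 20.7 and 23.0 CPM in Sema cultures 1 to 3 (log2 fold change 1.11, SE 0.0462; edgeR adjusted p = 4.17e-12). GBP2, a guanylate-binding protein, had 9.34, 9.62 and 9.80 CPM in SemaLPS cultures and 0.315, 0.295 and 0.647 CPM in Sema cultures (log2 fold change 4.41, SE 0.22). IRF9, the DNA-binding part of the complex that type I interferon activates, averaged 36.0 ± 2.43 CPM in SemaLPS and 18.6 ± 0.472 CPM in Sema cultures (log2 fold change 0.95, SE 0.0519). ISG15, a ubiquitin-like modifier, overlapped between groups at 50.8, 42.1 and 48.8 CPM in SemaLPS cultures and 37.5, 47.8 and 35.0 CPM in Sema cultures (log2 fold change 0.24, SE 0.25; edgeR adjusted p = 0.409). IFNB1, the gene for interferon-β, was not tested: it had 7, 1 and 11 UMIs in SemaLPS cultures 1 to 3, in 3, 1 and 2 cells, against 0, 1 and 0 UMIs in Sema cultures.

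Among 29 AP-1, EGR and other transcription factor genes, 20 rose and 8 fell, where 33.7% of all genes rose and 34.1% fell. CEBPD, one of the C/EBP factors of acute inflammation, averaged 424 ± 31.1 CPM in SemaLPS and 71.7 ± 5.75 CPM in Sema cultures (log2 fold change 2.56, SE 0.0576). CEBPB, another of them, averaged 282 ± 29.7 CPM in SemaLPS and 106 ± 8.63 CPM in Sema cultures (log2 fold change 1.41, SE 0.0408). IER3, an early gene that limits cell death, had 101, 117 and 91.4 CPM in SemaLPS cultures 1 to 3, against 19.7, 19.6 and 18.8 CPM in Sema cultures 1 to 3 (log2 fold change 2.41, SE 0.0468; edgeR adjusted p = 4.86e-16). KLF2, EGR2, EGR1, FOSB, FOS, KLF4, EGR3 and MAFK were the 8 that fell. EGR1, an immediate-early factor downstream of ERK, averaged 2.44 ± 0.665 CPM in SemaLPS and 5.49 ± 0.389 CPM in Sema cultures (log2 fold change −1.16, SE 0.13), and cells were collected in actinomycin D, a blocker of transcription, per the labels' protocols. CEBPA, the C/EBP factor of myeloid development, went the other way from CEBPB and CEBPD and was the largest fall by the rule, with 6.06, 7.83 and 7.76 CPM in SemaLPS cultures 1 to 3, against 43.1, 45.9 and 43.5 CPM in Sema cultures 1 to 3 (log2 fold change −2.62, SE 0.0722; edgeR adjusted p = 2.77e-14).

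Of 12 induced metabolic enzymes tested, 10 rose 2-fold or more, as 6.14% of all genes did, and 2 fell (PTGS1 and ALOX5, at −0.54 and −0.35), with a median of 2.56. SOD2, the manganese superoxide dismutase of mitochondria, had 4183, 4562 and 4246 CPM in SemaLPS cultures 1 to 3, against 357, 336 and 391 CPM in Sema cultures 1 to 3 (log2 fold change 3.58, SE 0.0489; edgeR adjusted p = 7.63e-17). KMO, an enzyme that breaks down kynurenine, averaged 54.5 ± 1.35 CPM in SemaLPS and 4.49 ± 0.572 CPM in Sema cultures (log2 fold change 3.59, SE 0.0557). KYNU, which acts on the same compound, averaged 184 ± 12.3 CPM in SemaLPS and 24.2 ± 1.96 CPM in Sema cultures (log2 fold change 2.92, SE 0.0574). ACOD1, which makes itaconate, was low at 3.56 ± 0.592 CPM in SemaLPS and 0.178 ± 0.0244 CPM in Sema cultures (log2 fold change 4.28, SE 0.28), and NOS2 had 0 UMIs in all 6 cultures. Of 18 glycolysis and HIF1A genes, 17 rose and 0 fell (33.7% and 34.1% of all genes), 5 of them rising 2-fold or more, with a median of 0.48. Without TMM 13 rose and 1 fell. SLC2A6, a lysosomal hexose transporter, had 105, 108 and 93.2 CPM in SemaLPS cultures and 11.1, 10.4 and 11.2 CPM in Sema cultures (log2 fold change 3.21, SE 0.0564; edgeR adjusted p = 2.19e-16), while ENO1 and LDHA, enzymes of lower glycolysis, rose by log2 fold changes of 0.53 and 0.65. Of 16 metallothionein, zinc and iron genes, 10 rose and 3 fell (33.7% and 34.1% of all genes), with a median of 0.34. TFRC, the transferrin receptor, had 282, 319.8 and 282 CPM in SemaLPS cultures and 84.6, 90.9 and 85.7 CPM in Sema cultures (log2 fold change 1.76, SE 0.0304). FTH1, the ferritin heavy chain, had a log2 fold change of 1.19 (SE 0.0381), and SLC40A1, the iron exporter ferroportin, one of −2.15.

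Of 14 cell survival and death genes 11 rose and 2 fell, where 33.7% of all genes rose and 34.1% fell, with a median of 0.66. TRAF1, an adaptor of pro-survival TNF-receptor signals, averaged 43.1 ± 1.70 CPM in SemaLPS and 2.04 ± 0.0757 CPM in Sema cultures (log2 fold change 4.39, SE 0.0939). BIRC3, the ubiquitin ligase cIAP2 of the same pathway, averaged 73.0 ± 5.50 CPM in SemaLPS and 4.06 ± 0.107 CPM in Sema cultures (log2 fold change 4.16, SE 0.0946). CFLAR, an inhibitor of caspase-8, averaged 238 ± 8.23 CPM in SemaLPS and 72.3 ± 1.10 CPM in Sema cultures (log2 fold change 1.72, SE 0.0317). Of 8 inflammasome genes 4 rose and 3 fell (33.7% and 34.1% of all genes). CASP5, a caspase that binds LPS inside the cell, had 64.7, 63.4 and 59.9 CPM in SemaLPS cultures 1 to 3, against 4.64, 4.0997 and 4.88 CPM in Sema cultures 1 to 3 (log2 fold change 3.77, SE 0.0619; edgeR adjusted p = 1.26e-16). CASP1 averaged 163 ± 12.9 CPM in SemaLPS and 77.6 ± 4.89 CPM in Sema cultures (log2 fold change 1.07, SE 0.0316). PYCARD, the adaptor ASC, fell, with 110.4, 100.1 and 113 CPM in SemaLPS cultures and 235, 227 and 230.4 CPM in Sema cultures (log2 fold change −1.10, SE 0.0377; edgeR adjusted p = 3.88e-13). Of 15 matrix and plasminogen genes tested 8 rose and 3 fell (33.7% and 34.1% of all genes). TNFAIP6, a hyaluronan-binding protein, had 160.3, 188 and 184 CPM in SemaLPS cultures 1 to 3, against 6.42, 4.66 and 6.96 CPM in Sema cultures 1 to 3 (log2 fold change 4.86, SE 0.12; edgeR adjusted p = 1.13e-14). PLAUR, the urokinase receptor, averaged 499.9 ± 96.6 CPM in SemaLPS and 235 ± 31.6 CPM in Sema cultures (log2 fold change 1.08, SE 0.0467). TIMP2, an inhibitor of matrix proteases, averaged 143 ± 12.3 CPM in SemaLPS and 209 ± 13.7 CPM in Sema cultures (log2 fold change −0.55, SE 0.0233). Among the remaining largest rises, CH25H, which makes 25-hydroxycholesterol, had 40.5, 49.5 and 34.8 CPM in SemaLPS cultures and 1.17, 0.982 and 1.70 CPM in Sema cultures (log2 fold change 4.92, SE 0.15). G0S2, an inhibitor of fat breakdown, had 697, 797 and 701 CPM in SemaLPS cultures and 36.4, 25.3 and 40.9 CPM in Sema cultures (log2 fold change 4.41, SE 0.14). LAMP3, a lysosomal protein of mature dendritic cells, averaged 69.6 ± 6.92 CPM in SemaLPS and 2.57 ± 0.244 CPM in Sema cultures (log2 fold change 4.75, SE 0.10). The long non-coding RNA LINC02605 averaged 46.7 ± 6.34 CPM in SemaLPS and 1.58 ± 0.152 CPM in Sema cultures (log2 fold change 4.84, SE 0.0952, and 5.48 with stricter hashtags). LAMP3 is also on the dendritic cell marker list, of whose 7 genes 4 had a mean over 1 CPM across the 6 cultures. The list summed to 79.98 to 98.6 CPM in SemaLPS and 33.3 to 41.5 CPM in Sema cultures. Of its 4 genes tested 3 rose and 1 fell. CCR7, the receptor that guides such cells to lymph nodes, had a mean of 4.51 CPM in SemaLPS and 0.424 CPM in Sema cultures, and CLEC10A, a lectin, 2.74 CPM in SemaLPS and 1.89 CPM in Sema cultures. CD1C of the same list had a mean of 17.6 CPM in SemaLPS and 31.2 CPM in Sema cultures, and FCER1A, CLEC9A and XCR1 were near 0. The part of such cells in the rise was not tested. The monocyte list summed to 996.7 to 1116 CPM in SemaLPS and 279.5 to 291.7 CPM in Sema cultures, most of it S100A9 (means of 829.6 CPM in SemaLPS and 213.4 CPM in Sema cultures) and S100A8 (228.6 CPM in SemaLPS and 59.98 CPM in Sema cultures). Of its 6 genes tested 4 rose and 1 fell. S100A12, a related calcium-binding protein, had a mean of 11.2 CPM in SemaLPS and 1.61 CPM in Sema cultures, VCAN, a proteoglycan, 4.94 CPM in SemaLPS and 11.8 CPM in Sema cultures, and FCN1, a ficolin, 0.901 CPM in SemaLPS and 0.500 CPM in Sema cultures. The part of monocytes in these values was not tested. CCR2, a defining gene of blood monocytes, had a mean of 0.0300 CPM in SemaLPS cultures and 0 UMIs in Sema cultures.

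Of 27 antigen presentation and costimulation genes 20 rose and 5 fell, where 33.7% of all genes rose and 34.1% fell, with a median of 0.67. Without TMM 16 rose and 6 fell. CD40, a costimulatory receptor, had 206, 197 and 189 CPM in SemaLPS cultures 1 to 3, against 36.5, 33.0 and 35.5 CPM in Sema cultures 1 to 3 (log2 fold change 2.49, SE 0.0364; edgeR adjusted p = 8.08e-17). CD274, which encodes PD-L1, averaged 17.6 ± 1.56 CPM in SemaLPS and 1.64 ± 0.284 CPM in Sema cultures (log2 fold change 3.42, SE 0.0787). TAP1, the peptide transporter of MHC class I, averaged 40.6 ± 1.17 CPM in SemaLPS and 8.37 ± 0.343 CPM in Sema cultures (log2 fold change 2.28, SE 0.0416). The groups did not overlap for any of these, as for 91.6% of all genes called. HLA-DMB, HLA-DMA, CD86, HLA-E and PSMB8 fell, by log2 fold changes of −0.92 to −0.13.

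The homeostatic programme of microglia was lower with LPS. Of 32 genes tested, 25 fell, 14 of them 2-fold or more, and 6 rose, with a median log2 fold change of −0.81, while 34.1% of all genes fell and 8.34% fell 2-fold or more. GPR34, a receptor for lysophosphatidylserine, had 50.2, 49.0 and 53.7 CPM in SemaLPS cultures 1 to 3, against 271, 269 and 271 CPM in Sema cultures 1 to 3 (log2 fold change −2.41, SE 0.0465; edgeR adjusted p = 4.51e-16). CYSLTR1, a leukotriene receptor, had 10.6, 7.48 and 7.45 CPM in SemaLPS cultures and 61.2, 45.2 and 46.9 CPM in Sema cultures (log2 fold change −2.59, SE 0.0479). SLC7A8, an amino acid transporter, had 10.8, 11.2 and 13.6 CPM in SemaLPS cultures and 55.2, 62.7 and 66.3 CPM in Sema cultures (log2 fold change −2.38, SE 0.0567). MERTK, a receptor for the uptake of dying cells that γ-secretase also cuts, had 12.1, 11.9 and 14.8 CPM in SemaLPS cultures and 52.1, 57.4 and 56.5 CPM in Sema cultures (log2 fold change −2.10, SE 0.0604; edgeR adjusted p = 4.57e-14). P2RY12, the ADP receptor of resting microglia, named after its values were seen, averaged 4.86 ± 0.766 CPM in SemaLPS and 30.7 ± 1.61 CPM in Sema cultures (log2 fold change −2.68, SE 0.0862). Those that rose included C1QA, C1QB and C1QC, the complement C1q chains, and the transcription factor genes SPI1 and IRF8, at log2 fold changes of 0.23 to 0.96. Other large falls by the rule were RGCC, a regulator of the cell cycle (36.2, 54.2 and 57.3 CPM in SemaLPS cultures and 182, 287 and 269 CPM in Sema cultures), CD300A, an inhibitory receptor (9.94 ± 0.343 CPM in SemaLPS and 46.8 ± 2.91 CPM in Sema cultures), and APPL2, an endosomal adaptor (12.0 ± 0.750 CPM in SemaLPS and 51.7 ± 1.76 CPM in Sema cultures), with log2 fold changes of −2.32, −2.24 and −2.11.

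TGF-β was in the medium of all cultures. The TGF-β response list of 15 genes also holds receptors, SMADs, the ligand TGFB1 and the corepressors SKI and SKIL. Of the 15 genes 11 fell, 6 of them 2-fold or more, and 2 rose (SMAD2 and SKIL), with a median of −0.84. Of all genes 34.1% fell and 8.34% fell 2-fold or more. Signalling by TGF-β was not measured. TGFBR1, the type I receptor, had 145, 147 and 132 CPM in SemaLPS cultures 1 to 3, against 292, 289 and 277 CPM in Sema cultures 1 to 3 (log2 fold change −1.02, SE 0.0272; edgeR adjusted p = 1.88e-14). ID3, one of the inhibitors of helix-loop-helix factors, averaged 12.3 ± 1.70 CPM in SemaLPS and 57.1 ± 5.27 CPM in Sema cultures (log2 fold change −2.22, SE 0.11). ID2, another of them, averaged 191 ± 2.35 CPM in SemaLPS and 422 ± 30.7 CPM in Sema cultures (log2 fold change −1.14, SE 0.0402). SKI, a corepressor of SMADs, averaged 18.5 ± 0.482 CPM in SemaLPS and 44.2 ± 1.69 CPM in Sema cultures (log2 fold change −1.25, SE 0.0390). Lysosome, lipid and scavenger genes had 16 of 26 falling and 8 rising (34.1% and 33.7% of all genes), and a median of −0.19. Without TMM 20 fell and 4 rose. LPL, lipoprotein lipase, had 145, 177 and 199 CPM in SemaLPS cultures and 398, 427 and 421 CPM in Sema cultures (log2 fold change −1.27, SE 0.0460; edgeR adjusted p = 7.85e-13). MRC1, the mannose receptor, averaged 54.4 ± 0.852 CPM in SemaLPS and 112 ± 5.12 CPM in Sema cultures (log2 fold change −1.04, SE 0.0368). CTSZ, a cathepsin, averaged 549 ± 16.4 CPM in SemaLPS and 398 ± 5.09 CPM in Sema cultures (log2 fold change 0.46, SE 0.0225). Of 25 cell-cycle genes 17 fell and 2 rose (34.1% and 33.7% of all genes), with a median of −0.28. MCM3, part of the replication helicase, averaged 29.5 ± 1.89 CPM in SemaLPS and 46.5 ± 4.37 CPM in Sema cultures (log2 fold change −0.65, SE 0.0601), and the 2 that rose were CCND1, cyclin D1, and CDKN1A, the inhibitor p21, at 0.46 and 0.38. Of 18 sterol synthesis genes 7 rose and 7 fell, close to the shares of all genes (median 0.04, and −0.16 without TMM); LSS, which makes lanosterol, rose by 1.57 and FDPS by 0.46, while FDFT1, squalene synthase, fell by 0.52.

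**Figure D2:**
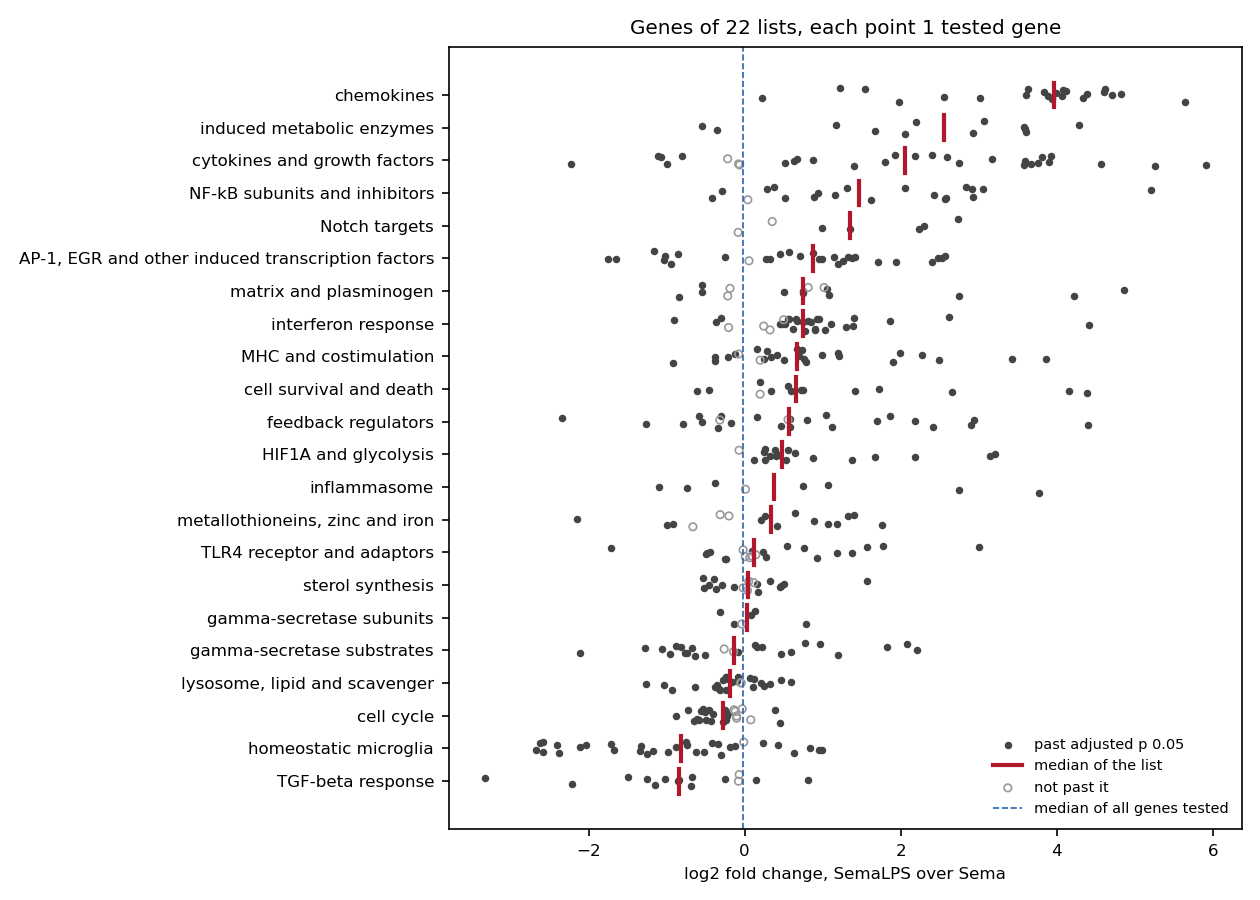
Log2 fold changes of SemaLPS over Sema for the tested genes of 22 lists, ordered by list median; filled points passed adjusted p 0.05, open points did not, red bars are list medians and the dashed line is the median of all 15383 genes (−0.02). Chemokines have the highest median (3.96) and the TGF-β response list, which also holds receptors and SMADs, the lowest (−0.84).

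Genes of the γ-secretase complex and its substrates were tested too, and their counts stand beside 33.7% of all genes that rose and 34.1% that fell. Of 6 subunit genes 3 rose and 2 fell. PSEN2, presenilin 2, averaged 8.26 ± 1.31 CPM in SemaLPS and 10.2 ± 0.710 CPM in Sema cultures, with overlapping groups (log2 fold change −0.32, SE 0.0749; edgeR adjusted p = 0.00142). APH1A averaged 77.5 ± 1.97 CPM in SemaLPS and 70.6 ± 2.28 CPM in Sema cultures, a small rise (log2 fold change 0.13, SE 0.0276; edgeR adjusted p = 4.32e-04) that turned to −0.07 without TMM, where 1 subunit rose and 5 fell. Of 25 substrate genes 11 rose and 12 fell, with a median of −0.14. Without TMM 7 rose and 13 fell. CD44, the hyaluronan receptor, had 582, 615 and 549 CPM in SemaLPS cultures 1 to 3, against 129.7, 138 and 146 CPM in Sema cultures 1 to 3 (log2 fold change 2.08, SE 0.0505; edgeR adjusted p = 6.31e-15). TREM2, a lipid receptor of microglia, had 259.3, 309.6 and 320.3 CPM in SemaLPS cultures and 445, 510.0 and 531 CPM in Sema cultures (log2 fold change −0.74, SE 0.0266; edgeR adjusted p = 6.61e-13). NOTCH1 fell by 0.96 on the log2 scale, while NOTCH2 and NOTCH3 rose by 0.77 and 2.21. CD44 transcripts were higher and TREM2 and MERTK transcripts lower in every SemaLPS culture than in any Sema culture. Of 7 Notch target genes tested, 5 rose and 0 fell with the inhibitor present (33.7% and 34.1% of all genes). DTX4, an E3 ligase of the Deltex family, had 18.0, 19.0 and 18.8 CPM in SemaLPS cultures 1 to 3, against 2.75, 2.80 and 2.87 CPM in Sema cultures 1 to 3 (log2 fold change 2.73, SE 0.0627; edgeR adjusted p = 3.24e-15). LFNG, a glycosyltransferase acting on Notch, averaged 9.75 ± 0.729 CPM in SemaLPS and 4.92 ± 0.489 CPM in Sema cultures (log2 fold change 0.99, SE 0.0721). DTX1 averaged 5.42 ± 0.785 CPM in SemaLPS and 2.08 ± 0.556 CPM in Sema cultures (log2 fold change 1.35, SE 0.14). NRARP, a feedback inhibitor of Notch, and HES4 had log2 fold changes of 2.29 and 2.24. HES1, a direct Notch target named after its values were seen, did not pass the test, at 1.62, 1.60 and 1.45 CPM in SemaLPS cultures and 1.42, 1.64 and 1.82 CPM in Sema cultures (log2 fold change −0.08, SE 0.13; edgeR adjusted p = 0.599); it stood at 2.87 ± 0.123 CPM in LPS and 3.06 ± 0.294 CPM in Ctrl cultures.

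The induced genes differed in how many cells held them. Cells were thinned to 10000 UMIs each, which left out 103 SemaLPS and 118 Sema cells that were shallower. SOD2 was found in all 4539 SemaLPS cells of the 3 cultures together, and 0 cells without a SOD2 UMI allow a share of such cells of up to 0.0661%, by counting error alone. In Sema cultures 401 of 4493 cells (8.92%) had none. A UMI can come from the cell or from free RNA, which were not told apart here. CCL4 was found in 98.3, 97.9 and 96.5% of cells of SemaLPS cultures 1 to 3, against 58.5, 58.4 and 61.2% of cells of Sema cultures. Both transcripts were in nearly every SemaLPS cell. CXCL8 was found in 79.8 ± 1.34% of SemaLPS cells and 21.5 ± 1.13% of Sema cells (SD, n = 3 each), with 12.8 UMIs per SemaLPS cell and 1.68 UMIs per Sema cell that held it. TNF was in 48.4 ± 4.51% of SemaLPS cells and 7.75 ± 0.779% of Sema cells. TNIP3 was in 44.9 ± 5.74% of SemaLPS cells and 2.07 ± 0.715% of Sema cells. CCL8, the gene with the largest rise, was in 12.8, 12.9 and 10.2% of SemaLPS cells and 0.524, 0.812 and 0.572% of Sema cells. IL6 was in 7.49 ± 1.75% of SemaLPS cells and 0.482 ± 0.226% of Sema cells. CXCL10 was in 13.8 ± 3.38% of SemaLPS cells and 1.10 ± 0.367% of Sema cells, and CCL20 in 29.6 ± 0.628% of SemaLPS cells and 5.84 ± 0.920% of Sema cells. These shares depend on depth. Without thinning TNF was in 69.9% of SemaLPS cells and 18.8% of Sema cells, and TNIP3 in 68.3% of SemaLPS cells and 5.29% of Sema cells. CXCL8 was then in 90.1% of SemaLPS cells and 43.6% of Sema cells, and CCL4 in 99.6% of SemaLPS cells and 88.2% of Sema cells. CCL20 was in 41.5% of SemaLPS cells and 14.6% of Sema cells without thinning, and CXCL10 in 24.4% of SemaLPS cells and 2.95% of Sema cells. CCL8 and IL6 stayed the rarest, with CCL8 in 17.7% of SemaLPS cells and 2.25% of Sema cells and IL6 in 15.6% of SemaLPS cells and 1.23% of Sema cells. For each of the 17 genes the groups did not overlap and the exact two-sided permutation test over cultures gave p = 0.1. That is the smallest p that 3 against 3 cultures allow. The 10 largest rises among them were chosen by this same contrast. At this floor, and without the replicate number as a block, the test is not taken as support for any of the 17. What free RNA adds to the shares of cultures without LPS was not tested. CXCL8 was in 22.5 ± 2.00% of Ctrl cells and TNF in 8.50 ± 1.17%.

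**Figure D3:**
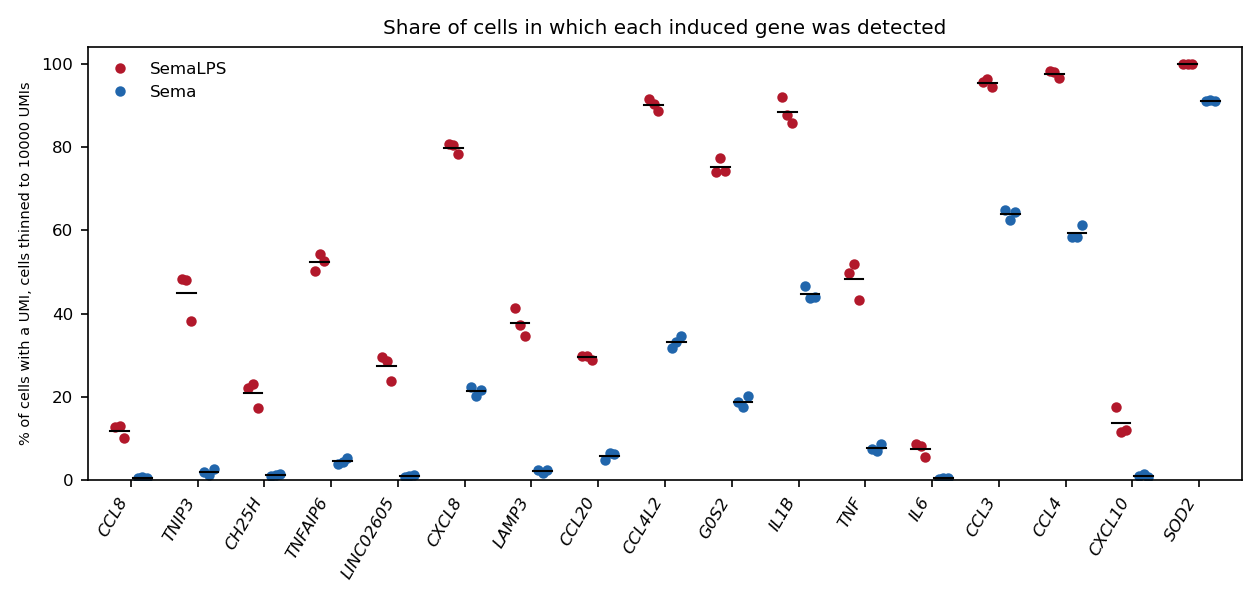
Percentage of cells with at least 1 UMI of each of 17 induced genes after thinning each cell to 10000 UMIs, in SemaLPS cultures (red) and Sema cultures (blue); each point is 1 culture and each bar the mean of 3. SOD2 and CCL4 were in nearly all SemaLPS cells, CXCL8 in about 79.8% and IL6 in 7.49%.

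The response with the inhibitor was close to the response without it. In LPS against Ctrl cultures 5051 genes rose (32.8%) and 4958 fell (32.2%). Both comparisons use separate cultures, and over the 5275 genes of at least 20 CPM their log2 fold changes had a Pearson r of 0.992 and a slope of 0.979, given as a description across genes. Of the 2228 genes called at 2-fold or more with the inhibitor, 2064 were also called in the same direction without it. CXCL8 had a log2 fold change of 4.83 with and 4.73 without the inhibitor, a difference of 0.09 with a 95% interval of −0.20 to 0.38. For IL1B the values were 3.90 and 4.21, a difference of −0.31 (−0.54 to −0.08; edgeR adjusted p = 0.462), and for GPR34 they were −2.41 and −2.42 (0.01; −0.13 to 0.15). List medians were near each other in most cases. They were 3.96 with and 3.73 without the inhibitor for chemokines, 1.46 and 1.53 for NF-κB genes, and −0.81 and −0.86 for homeostatic genes. They lay farthest apart for metallothionein, zinc and iron genes, at 0.34 and 1.11, where the median of the differences gene by gene was −0.09. Next came induced metabolic enzymes, at 2.56 with and 3.06 without the inhibitor, where that median was −0.05. Of the 282 genes of at least 20 CPM that rose 2-fold or more, 266 (94.3%) had an interval of the difference that lay within 1.5-fold either way, and of the 141 that fell 2-fold or more, 140 did; over all 5275 genes of this level 5241 (99.4%) did. For the others the interval reached past 1.5-fold in at least 1 direction. CCL8, the largest rise, was among these, at 5.64 with and 5.95 without the inhibitor (difference −0.31, −0.85 to 0.23). CXCL10, below 20 CPM on average, had 4.70 and 5.35 (difference −0.64, −1.31 to 0.02). Of the 282 genes that rose, 150 had a difference below 0.

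**Figure D4:**
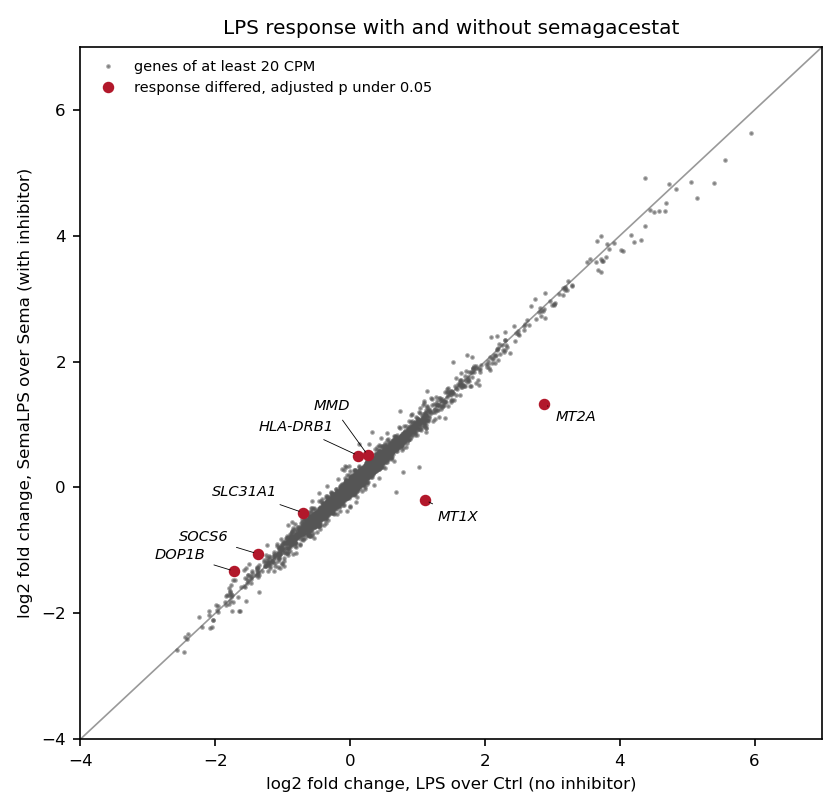
Log2 fold change of SemaLPS over Sema (vertical) against that of LPS over Ctrl (horizontal) for 5275 genes of at least 20 CPM; the line marks equal responses and red points are the genes of this level whose difference passed adjusted p 0.05. Most genes lie along the line, while MT1X and MT2A lie below it and SOCS6, DOP1B, SLC31A1, HLA-DRB1 and MMD above it.

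An unadjusted p under 0.05 in edgeR's test of the difference itself was reached by 1226 of 15383 genes (7.97%). After adjustment it called 10, of which 8 had a more positive LPS response under the inhibitor (0.052%) and 2 a more negative one (0.013%). DESeq2's Wald test, which gave an adjusted p for 3752 genes, called 25 and 3, and edgeR without the block called 0 and 1, with 549 genes at an unadjusted p under 0.05. MT1X kept its call whichever of the 12 cultures was left out, but not in library 2 alone (difference −1.12; edgeR adjusted p = 0.232). Each of the other 9 lost it without at least 3 of them, and these are named in the closing section. The 2 lower responses were metallothioneins, small proteins that bind zinc and copper. MT1X had 25.1, 26.5 and 24.1 CPM in SemaLPS, 30.0, 25.9 and 30.5 in Sema, 41.9, 37.7 and 35.5 in LPS and 15.03, 22.0 and 16.2 in Ctrl cultures. LPS cultures were the highest of the 4 conditions and Ctrl cultures the lowest, with SemaLPS and Sema between them. MT1X did not pass the test with the inhibitor (log2 fold change −0.20; edgeR adjusted p = 0.0750) and rose without it (1.11). The difference was −1.32 (95% interval −1.62 to −1.02; edgeR adjusted p = 0.00164). MT2A had 62.9, 96.8 and 80.5 CPM in SemaLPS, 30.0, 26.3 and 39.0 in Sema, 119, 110.2 and 148 in LPS and 10.1, 25.1 and 16.9 in Ctrl cultures. It rose in both comparisons, by 1.32 with and 2.87 without the inhibitor, a difference of −1.55 (−2.10 to −1.01; edgeR adjusted p = 0.0411). The MT2A difference was −2.21 in library 1 alone and −0.88 in library 2 alone, where it was not called (edgeR adjusted p = 0.635). Both lie on chromosome 16 in GENCODE v29, MT2A at 56608199 to 56609497 and MT1X at 56682424 to 56684196. The other 5 metallothionein genes tested there, looked at after these values were seen, also had negative differences, from −3.995 (MT1M) to −0.87 (MT1F), and none of the 5 passed the adjusted test. Their transcripts are alike and reads may be divided between them.

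HLA-DRB1, a β chain of MHC class II, had 168, 141 and 124 CPM in SemaLPS, 109, 105 and 90.7 in Sema, 131, 109 and 109 in LPS and 116, 109 and 96.6 in Ctrl cultures. SemaLPS-1 and SemaLPS-2 lay above all cultures of the other conditions, and SemaLPS-3 lay below LPS-1. The difference was 0.38 (0.26 to 0.51; edgeR adjusted p = 0.0372). The other 11 MHC class II genes tested, CD74 and CIITA included, were looked at after these values were seen. All 11 had a positive difference, between 0.14 (HLA-DOA) and 0.61 (CIITA), and 0 of the 11 passed the adjusted test. HLA-DRA, the α chain of the DR molecules, stood at 203 ± 58.1 CPM in SemaLPS, 124 ± 23.4 in Sema, 156 ± 34.5 in LPS and 128 ± 20.7 CPM in Ctrl cultures. HLA-DMB, which loads peptides, fell in both comparisons, by 0.92 with and 1.23 without the inhibitor on the log2 scale.

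SOCS6, DOP1B and SLC31A1 fell less with the inhibitor. SOCS6, an adaptor that marks receptor kinases for breakdown, had 80.4, 74.4 and 63.1 CPM in SemaLPS, 158, 159 and 134 in Sema, 66.2, 65.6 and 53.8 in LPS and 167, 174 and 139 in Ctrl cultures. It had log2 fold changes of −1.06 with and −1.37 without the inhibitor, a difference of 0.31 (edgeR adjusted p = 0.0200). DOP1B, a membrane trafficking protein, had log2 fold changes of −1.33 and −1.72, and SLC31A1, the copper importer CTR1, of −0.40 and −0.70, with differences of 0.39 and 0.29 (edgeR adjusted p = 0.0411 for each). SLC31A1 stood at 39.3, 42.2 and 39.3 CPM in SemaLPS, 52.5, 55.1 and 52.1 in Sema, 38.7, 37.4 and 36.1 in LPS and 58.9, 62.6 and 60.3 in Ctrl cultures. All Sema cultures lay below all Ctrl cultures. MMD, a membrane protein of macrophage maturation, rose more with the inhibitor (0.51 against 0.26; difference 0.24, edgeR adjusted p = 0.0493). PTGDS, prostaglandin D synthase, was low, at 10.1, 7.46 and 12.7 CPM in SemaLPS, 4.03, 4.81 and 8.70 in Sema, 6.21, 5.08 and 8.45 in LPS and 7.86, 5.86 and 10.4 in Ctrl cultures. Its difference of 1.08 had an interval of 0.74 to 1.41 (edgeR adjusted p = 0.0293). With cells of up to 20% mitochondrial UMIs let in, the PTGDS difference was 0.40 and was not called (edgeR adjusted p = 0.538).

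LUM and COL3A1, matrix genes of fibroblasts, were the remaining calls and rested on a few cells. LUM had 16, 322 and 0 UMIs in SemaLPS cultures 1 to 3 and 1, 2 and 1 in Sema cultures. It had 21, 1 and 5 in LPS cultures and 1, 423 and 2 in Ctrl cultures. In SemaLPS-2, 3 cells held 99.1% of the LUM UMIs and 99.9% of the 920 COL3A1 UMIs, and in Ctrl-2 a single cell held all 423 LUM UMIs. Without SemaLPS-2 neither gene was called, at an edgeR adjusted p of 0.585 for LUM and 0.852 for COL3A1 (differences of 9.01 and 4.34 on the log2 scale). The 5 fibroblast markers summed to 2.18 to 43.3 CPM in SemaLPS, 2.72 to 5.62 CPM in Sema, 2.84 to 4.57 CPM in LPS and 3.02 to 13.6 CPM in Ctrl cultures.

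**Figure D5:**
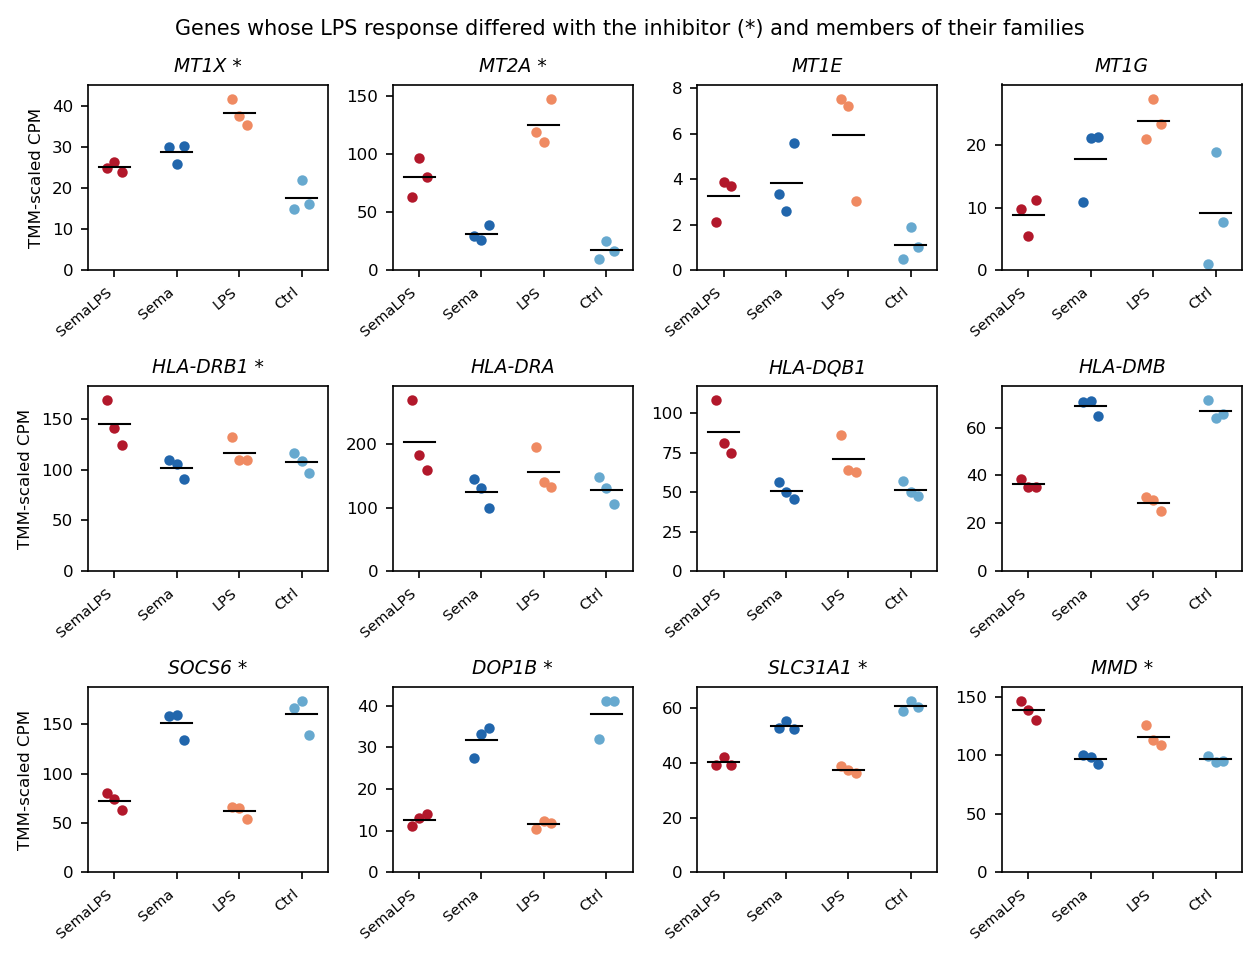
TMM-scaled CPM of 4 metallothionein genes, 4 MHC class II genes and SOCS6, DOP1B, SLC31A1 and MMD in SemaLPS, Sema, LPS and Ctrl cultures; each point is 1 culture, each bar the mean of 3, and an asterisk marks genes whose difference of LPS responses passed adjusted p 0.05. MT1X was highest in LPS cultures (38.4 ± 3.21 CPM) and HLA-DRB1 in SemaLPS cultures (145 ± 22.4 CPM).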

How the data were processed

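Gene and hashtag UMI counts per barcode were deposited by the authors without normalization, per the file headers, which name Cell Ranger 6.0.1; per the submitters' processing notes the tools were Cell Ranger 3.0.2 and Seurat 4.1.1, and the build hg38. Collection was in actinomycin D, per the labels' protocols, and cells were stained with 1 hashtag antibody per culture, pooled, and divided into 2 libraries of 10x 3' v3.1 chemistry. Of 28943 barcodes 24662 carried 1 hashtag and 16937 passed the limits on genes (minimum 1000) and mitochondrial UMIs (maximum 10%). Cell pairs from different cultures were removed by the hashtag ratio, no doublet caller was run, and pairs within a culture remain.

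The sums of counts per culture, both libraries together, were fitted for all 12 cultures with edgeR 4.0.16 (R 4.3.3; filterByExpr, TMM, quasi-likelihood test, Benjamini-Hochberg adjustment), with the replicate number as a block; CPM are TMM-scaled. The interaction term tested the difference of responses. Same-numbered cultures deviated together (correlations of 0.426 to 0.763 over 5275 genes, each of 12 cultures best with its own number), from which the pairing was taken. The steps were tested on simulated data. Named genes were the 10 largest rises and falls (adjusted p under 0.05, same direction in 3 pairs, mean of at least 20 CPM), the 3 smallest adjusted p of each list, 8 set genes and up to 10 genes of the difference test. Genes and list members named beyond this rule were chosen after their values were seen. The members and lists were chosen with earlier results of these data known. Alternatives were DESeq2 1.42.0, other scalings, no filter, each library alone, other cell limits and leaving out each culture. Counting error alone is covered by the limits for a count of 0.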

Additional observations from a re-analysis of the deposited data

Results flagged for a closer look

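The test of the difference between the LPS responses with and without semagacestat picked out 10 genes, whose values are log2 differences with minus without the inhibitor from edgeR. MT1X had −1.32 and MT2A −1.55. SOCS6 had 0.31, DOP1B 0.39 and SLC31A1 0.29. HLA-DRB1 had 0.38, MMD 0.24 and PTGDS 1.08. LUM had 9.61 and COL3A1 8.83, each resting on a few cells of SemaLPS-2 and Ctrl-2. Without LPS-2 they were 4.99 and 3.52, without Ctrl-2 LUM had 5.27, and without Sema-2 and SemaLPS-2 COL3A1 had 4.18 and 4.34. Groups of 3 cultures were not searched for single outlying cultures.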

How the results depend on the processing

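The direction and call in SemaLPS against Sema of 90 of 93 called and named genes held in every alternative that gave a value, of 23 tried. LUM and COL3A1 lost their calls in some, and APH1A turned to −0.0688 with total counts without TMM. That scaling gave 2958 rises and 8085 falls with the inhibitor, and 2902 and 7807 without it. With no replicate block 4757 genes rose and 4686 fell, and the genes whose response differed numbered 0 higher and 1 lower. For that difference, DESeq2 gave 25 higher and 3 lower, and no filter on low counts 218 higher and 81 lower. Library 1 alone gave 0 higher and 4 lower, and library 2 alone 3 and 2. Stricter hashtags gave 1 and 1, and a mitochondrial maximum of 20% gave 0 and 2. The causes were not tested. Leaving out 1 culture gave 4818 to 5263 rises and 4796 to 5312 falls, of which 927 to 993 and 1281 to 1376 were 2-fold or more, and 4671 to 5100 rises and 4514 to 5032 falls in LPS against Ctrl. The genes whose response differed then numbered 0 to 29 higher and 1 to 9 lower. MT1X kept its call in all 12 such fits and lost it with library 2 alone (−1.12, adjusted p = 0.232). The PTGDS difference was 0.40 with a mitochondrial maximum of 20%, and that of MT2A −2.21 with library 1 alone and −0.88 with library 2 alone. PTGDS lost it without LPS-2, SemaLPS-2 or Ctrl-3, and SOCS6 without Sema-1, LPS-2 or Ctrl-3. HLA-DRB1 and SLC31A1 lost it without Sema-1, Sema-3, Ctrl-2, Ctrl-3, LPS-2 or SemaLPS-2, and MMD without these or SemaLPS-1. LUM and COL3A1 lost it without these 6 cultures or Sema-2. MT2A lost it without Ctrl-1, Sema-1, SemaLPS-1, Ctrl-3, Sema-3 or SemaLPS-3, and DOP1B without any culture but Ctrl-1, LPS-1 and LPS-3. Genes of few UMIs, such as IFNB1, are limited by depth.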
